A study of Salvia dorisiana with 6 samples.

Results

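Besides limonene synthase, the trichomes of *Salvia dorisiana*, a glandular sage, held transcripts of 10 other terpene synthases. They were chosen by 1 rule: the PFAM domain Terpene_synth_C (the C-terminal, metal-binding part of terpene synthases) is annotated in them, and they are not the limonene synthase cluster clust603 (SdLS, SdEuS) or the diterpene-related clusters clust70 and clust927. This gave 10 of the 85 transcripts in the table, where 13 carry the domain. All 10 stand in the table with values in all 6 libraries, and no filter on low values was applied. The 85 had been selected on these same libraries for high RPKM in trichomes and for a tissue profile that followed SdLS and the metabolites, so that a high trichome level was a condition of entry and not a result. The profile condition bore on the other tissues too. The study found more of the metabolites in its smallest leaves than in larger leaves, stem and roots. Lower levels in those tissues are thus not independent of entry.

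The study sought the enzymes of a monoterpene pathway that starts from geranyl diphosphate and passes through limonene. RNA was sequenced, with 1 library per tissue, from isolated trichomes, from leaves of 3 size classes (under 3 cm, 3 to 10 cm and over 10 cm, here called small, medium and large leaves), from stem and from roots. All came from untreated greenhouse plants propagated by cutting. The trichomes had been taken from young leaves and apical buds, which no leaf library matches exactly. With 1 library per tissue no difference has a replicate check and no test was made.

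Terpene synthases turn a linear prenyl diphosphate into the carbon skeleton of a terpene. Most monoterpene synthases use geranyl diphosphate in plastids, and most sesquiterpene synthases use farnesyl diphosphate in the cytosol. Diterpene synthases use geranylgeranyl diphosphate or a copalyl-type product of it. In the mint family the volatile terpenes of the leaf are made and stored in glandular trichomes, and a plant usually carries many synthases of which several make more than 1 product. Germacrene D and caryophyllene are common sesquiterpenes of such glands, while kaurene, miltiradiene and sclareol are diterpenes.

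By product class, 2 of the 10 had been characterised by the study as monoterpene synthases. Of the 8 not characterised, 7 were closest in BLAST to sesquiterpene synthases and 1 to diterpene synthases. Germacrene D was named among the BLAST matches of 6. These names are matches in other species, so the products of the 8 are not known from these data. The BLAST match can also differ from the product, as in clust1265 (SdSaS), which the study characterised as a sabinene synthase and whose closest match is a sesquiterpene enzyme, a trans-alpha-bergamotene synthase-like protein. The study also states that SdSaS lacks a plastid targeting signal. The label of clust629 (SdPS), the β-pinene synthase, is uncertain, because the table gives this cluster the sequence record that the study assigns to SdPCS, its pinene and camphene synthase.

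Values are RPKM, read numbers divided by the length of the transcript and by the size of the library. Whole fragments (read pairs) were recovered from them, with library totals between 3314347 in trichomes and 19415968 in medium leaves, and each range in brackets is an exact 95% interval for counting error alone. Each coding length that came out with the fragments is the shortest that fitted, and only 2 of the 85 transcripts had 1 fitting length. By these lengths 6 of the 10 were at least 1600 nt and 4 were shorter. A longer fitting length would raise the fragments of a transcript and its share of mapped fragments. The clusters clust1050 and clust3938, at 1134 and 858 nt, carry the Terpene_synth_C domain without the N-terminal Terpene_synth domain. The third short one, clust2225, carries both domains at 948 nt, and clust1244 carries both at 1416 nt. A read could match several places and similar reading frames had been merged, so members with the same BLAST match may share reads, and the share was not tested. The tissue labels could not be checked on independent markers, since the table lists only transcripts picked for trichome expression.

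In trichomes the summed RPKM of the 10 transcripts exceeded that of clust603. This cluster carries the names of 2 characterised enzymes, the limonene synthase SdLS and the eucalyptol synthase SdEuS, so its level cannot be given to SdLS alone. Their RPKM summed to 33679, against 22369 for clust603, a ratio of 1.51. The largest part of that sum was clust1129 (29.6%), and without it the ratio was 1.06. They took 4.84% of the mapped fragments, where clust603 took 3.98%, and 3.23% without clust1129. The sum was 2101 RPKM in small leaves, 1352 in medium leaves, 840 in large leaves, 380 in stem and 186 in roots. It thus lay 16.0-fold above small leaves in trichomes and was lower in each tissue of this order. Relative to clust603 the order was another: the ratio was 1.16 in small leaves, 1.33 in medium leaves and 2.60 in large leaves, then 0.889 in stem and 0.409 in roots. By RPKM the 10 were thus the larger group in trichomes and in all 3 leaf libraries, and clust603 in stem and roots. This order rested on clust1129 and on the length scaling in part. The values that follow were added after seeing the data, except the single changes in trichomes. Without clust1129 the ratio was 0.788 in small leaves, 0.924 in medium leaves and 1.62 in large leaves. By fragments, not divided by length, it was 1.22 in trichomes, 0.943 in small leaves, 1.09 in medium leaves and 2.23 in large leaves, and with both changes 0.812, 0.609, 0.720 and 1.35. Large leaves were the library where the 10 exceeded clust603 in all 4 versions.

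**Figure D1:**
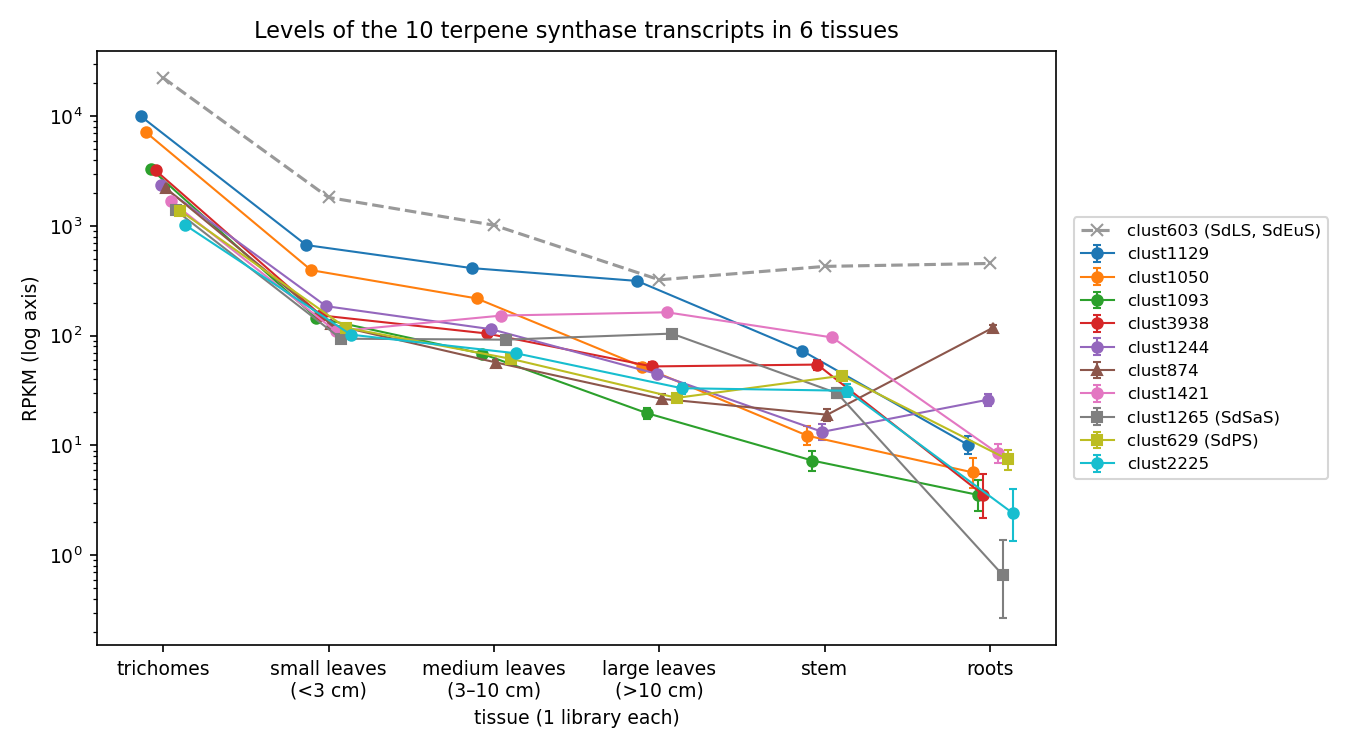
RPKM (log axis) of the 10 terpene synthase transcripts and of clust603 (grey crosses) in 6 tissues with 1 library each. Circles are sesquiterpene synthase-like, squares characterised monoterpene synthases and the triangle the diterpene synthase-like clust874, bars are 95% intervals for counting error, points are offset sideways for legibility and lines only join a transcript. All 10 are highest in trichomes, between 1016 and 9979 RPKM, and clust874 alone is above 100 in roots, at 118.

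A germacrene D synthase-like transcript came first in abundance in trichomes and leaves. The cluster clust1129, whose BLAST match is a germacrene D synthase, was at 9979 RPKM in trichomes, 670 in small leaves, 413 in medium leaves, 316 in large leaves, 72.7 in stem and 10.2 in roots. It was the highest of the 10 in trichomes and in every leaf library, and the fifth highest of all 85 in trichomes. In large leaves it came close to clust603, with a ratio of clust603 over clust1129 of 1.02, where that ratio was 2.24 in trichomes, 5.89 in stem and 44.8 in roots.

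The cluster clust1421 has the same BLAST match but another distribution. It was at 1688 RPKM in trichomes, 110 in small leaves, 153 in medium leaves, 163 in large leaves, 96.4 in stem and 8.51 in roots. Of the 10 it alone was higher at each step to a larger leaf, and it was the highest of the 10 in stem. The ratio of clust1129 over clust1421 was 5.91 in trichomes, 6.11 in small leaves, 2.71 in medium leaves, 1.93 in large leaves, 0.754 in stem and 1.19 in roots. The pair with this match therefore passed from an excess of clust1129 in trichomes to an excess of clust1421 in stem, and both together made up 34.6% of the summed RPKM in trichomes and 57.0% in large leaves.

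Transcripts closest to both caryophyllene and germacrene D synthases had the lowest stem levels relative to trichomes. The cluster clust1050 was at 7151 RPKM in trichomes, 395 in small leaves, 219 in medium leaves, 52.4 in large leaves, 12.3 in stem and 5.68 in roots. The cluster clust1093 was at 3322, 146, 68.8, 19.7, 7.29 and 3.55 RPKM in the same order of tissues. Both were lower in every tissue of this order, and their stem levels were 0.172% and 0.219% of the trichome level, the lowest stem shares of the 10 (median 1.28%, against 2.24% over all 85). Their 6-tissue profiles were the most alike of the 45 pairs among the 10, with a root mean square difference of 0.40 on the log2 scale of RPKM + 1 after centring each on its own mean, where the median pair was at 1.15.

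The patchoulol synthase-like transcripts were the next most alike pair, at 0.41. The cluster clust3938, matched to α-copaene, germacrene D and patchoulol synthases, was at 3200 RPKM in trichomes, 153 in small leaves, 105 in medium leaves, 52.5 in large leaves, 54.6 in stem and 3.58 in roots. The cluster clust2225, matched to germacrene D and patchoulol synthases, was at 1016, 102, 69.1, 33.2, 31.5 and 2.43 RPKM in the same order. In both, stem and large leaves were not separated by counting error, with a ratio of stem over large leaves of 1.04 (0.899–1.20) in clust3938 and 0.949 (0.793–1.13) in clust2225. They differed in trichomes, where clust3938 was 3.15-fold as high as clust2225 by RPKM, and in the other 5 libraries the ratio stayed between 1.47 and 1.73. The remaining pair with a shared match, clust1129 and clust1421, was far less alike, at 1.11 and 20th of the 45 pairs.

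The last sesquiterpene synthase-like transcript, clust1244, matched vetispiradiene, germacrene B and δ-cadinene synthases, enzymes whose products include precursors of defence compounds in other plants. It was at 2344 RPKM in trichomes, 186 in small leaves, 115 in medium leaves, 44.9 in large leaves, 13.3 in stem and 26.1 in roots. Unlike the other 6 of its class it was lower in stem than in roots, with a ratio of roots over stem of 1.96 (1.59–2.44).

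The characterised monoterpene synthases had overlapping counting intervals in trichomes and parted in the other tissues. The sabinene synthase SdSaS (clust1265) was at 1391 RPKM (1360–1423) in trichomes, 94.0 in small leaves, 92.1 in medium leaves, 105 in large leaves, 29.9 in stem and 0.663 in roots, the root value resting on 7 fragments. The cluster labelled SdPS (clust629) was at 1368 RPKM (1339–1397) in trichomes, 118 in small leaves, 61.5 in medium leaves, 27.2 in large leaves, 43.2 in stem and 7.48 in roots. SdSaS stayed between 92.1 and 105 RPKM across the leaf series while SdPS was lower in each larger leaf. The ratio of SdPS over SdSaS was accordingly 0.983 in trichomes, 1.26 in small leaves, 0.668 in medium leaves, 0.260 in large leaves, 1.45 in stem and 11.3 in roots. In trichomes these were the only neighbours in the order of the 10 whose counting intervals overlapped.

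The diterpene synthase-like transcript clust874, matched to kaurene, miltiradiene and sclareol synthases, stood apart in roots. It was at 2218 RPKM in trichomes, 127 in small leaves, 56.9 in medium leaves, 26.6 in large leaves, 19.1 in stem and 118 (112–124) in roots, the root value resting on 1359 fragments. Its root level was close to that of small leaves, with a ratio of 0.930 (0.873–0.991), and 6.18-fold (5.40–7.11) that of stem. Kaurene synthases act in gibberellin synthesis and miltiradiene synthases in the synthesis of abietane diterpenes, and the BLAST match does not tell these apart. In isolated trichomes the study listed a kaurene, ferruginol, carnosol and carnosic acid, named by their mass spectra. Whether clust874 acts in the synthesis of any of them was not tested. The sum of the 10 in roots was 63.4% clust874, against 6.59% in trichomes.

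All 10 transcripts were at least 8-fold higher in trichomes than in small leaves, on the log2 scale of RPKM + 1, where 72.9% of the 85 listed transcripts were. Scaled to mitochondrial ATP synthase transcripts 9 were, without clust2225, and 49.4% of the 85. The RPKM ratio ran from 9.94-fold (9.34–10.6) in clust2225 to 22.7-fold (21.9–23.5) in clust1093. Between them lay clust629 (SdPS) at 11.6-fold, clust1244 at 12.6-fold, SdSaS at 14.8-fold, clust1129 at 14.9-fold, clust1421 at 15.4-fold, clust874 at 17.5-fold, clust1050 at 18.1-fold and clust3938 at 20.9-fold. The cluster clust603, at 12.3-fold (12.2–12.4), lay above 2 of the 10, clust629 and clust2225, and within the interval of clust1244 (12.2–13.1). The median log2 ratio was 3.91 over the 10 and 3.35 over all 85. In these bulk samples a lower level in whole leaves can come from fewer gland cells in the tissue or from less of the transcript per gland, and the data cannot tell them apart.

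**Figure D2:**
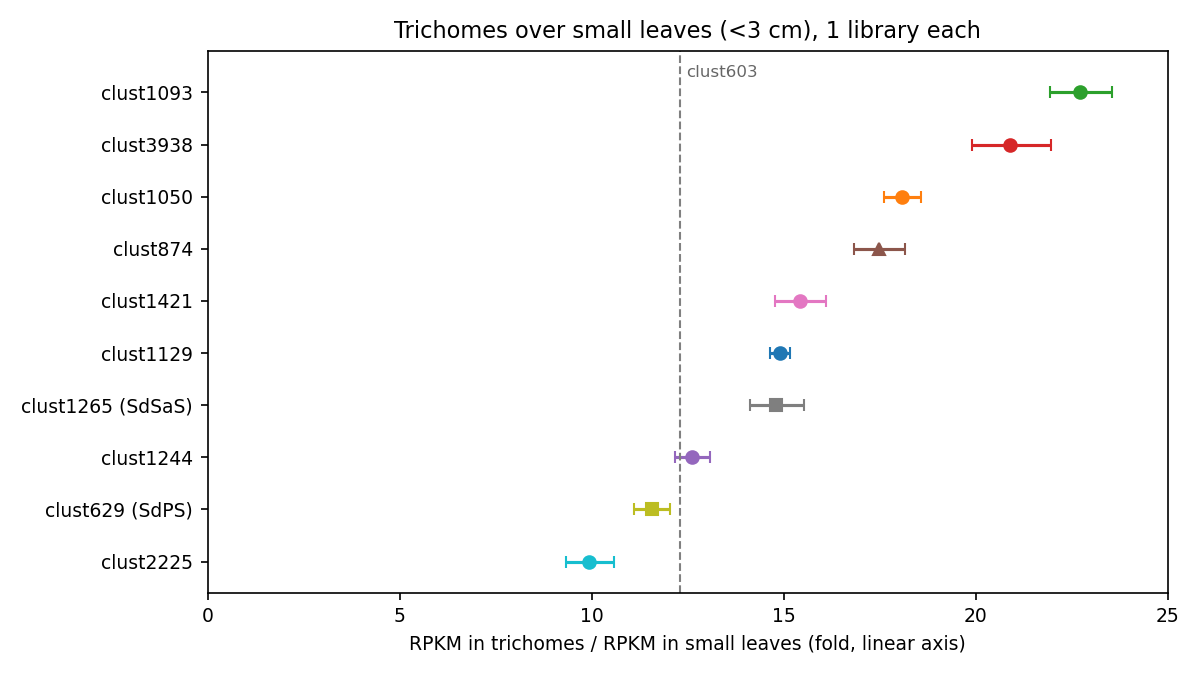
RPKM in trichomes divided by RPKM in small leaves (linear axis, 1 library each) for the 10 terpene synthase transcripts, with 95% intervals for counting error and symbols by class as in the plot of levels by tissue. The dashed line is clust603 at 12.3-fold, and the 10 run from 9.94-fold in clust2225 to 22.7-fold in clust1093.

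Along the leaf series 8 of the 10 had a falling order from small over medium to large leaves, as had 76.5% of the 85, and the exceptions were clust1421 and SdSaS. The 8 were also at least 2-fold lower in large leaves than in small leaves, where 60% of the 85 were. The range within the 8 was wide. The clusters clust1050 and clust1093 were 7.54-fold and 7.42-fold lower in large leaves, clust874 was 4.77-fold, SdPS 4.36-fold and clust1244 4.14-fold lower, and clust2225, clust3938 and clust1129 were 3.08-fold, 2.91-fold and 2.12-fold lower. Scaled to mitochondrial ATP synthase transcripts instead of the library total, the last 3 were no longer 2-fold lower, and clust1129 no longer had the falling order. The scaling transcripts, clust1041 and clust4711, are themselves among the 85 selected. They were lower in large than in small leaves, at log2 ratios of -0.90 and -0.43, so dividing by them takes out part of a fall by construction. With that scaling 44.7% of the 85 were 2-fold lower and 58.8% had the falling order.

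The 2 exceptions were higher in large leaves than in small leaves, where 10.6% of the 85 were. The ratio of large leaves over small leaves was 1.49 (1.41–1.58) in clust1421 and 1.11 (1.04–1.19) in SdSaS. The step from small to medium leaves was 1.39-fold (1.33–1.46) in clust1421, while in SdSaS, at 0.980 (0.927–1.04), it was not separated from 1 by counting error. Rising at each step was found in 4.71% of the 85, clust1421 among them. The share of clust1421 and SdSaS in the summed RPKM was 9.69% in small leaves, 18.1% in medium leaves and 31.9% in large leaves, and that of clust1050 was 18.8%, 16.2% and 6.24%.

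**Figure D3:**
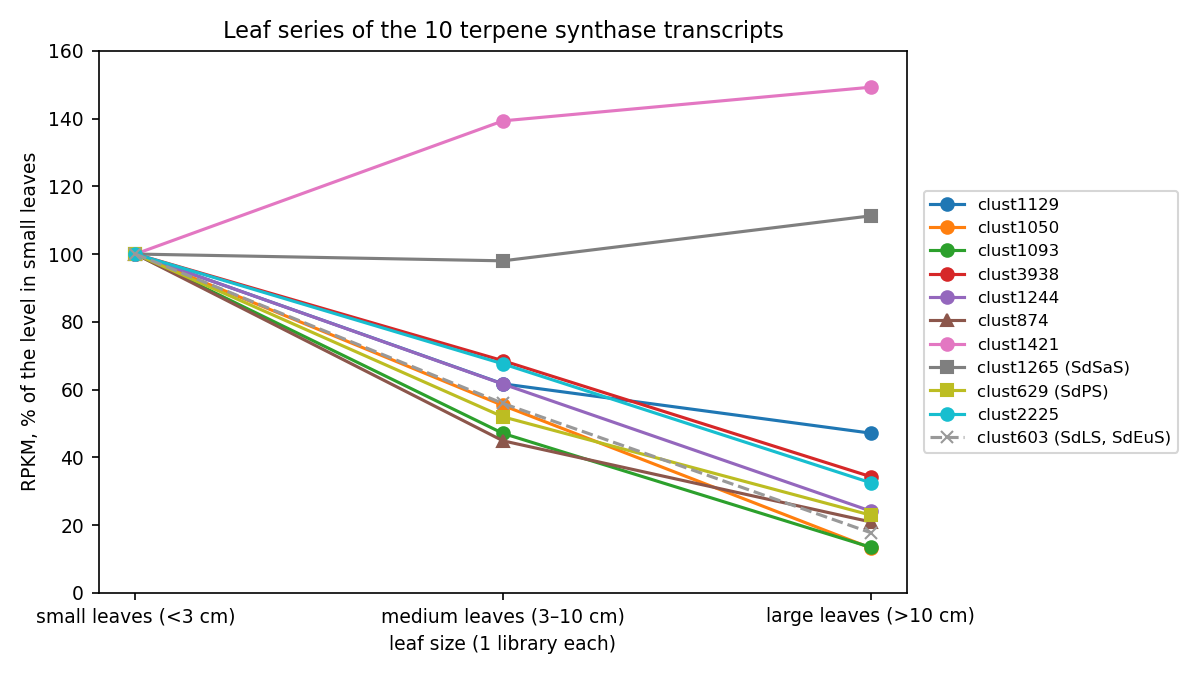
RPKM of the 10 terpene synthase transcripts and of clust603 (grey crosses) in 3 leaf libraries, as a percentage of the level in small leaves, with symbols by class as in the plot of levels by tissue. The lines of clust1421 and clust1265 (SdSaS) end above 100% and the other 8 end below it, between 13.3% and 47.1%, with clust1050 and clust1093 lowest.

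In stem, 5 of the 10 were at least 2-fold lower than in large leaves, namely clust1129, clust1050, SdSaS, clust1244 and clust1093, where 27.1% of the 85 were. The ratio was 4.34-fold (4.04–4.67) in clust1129, 4.27-fold (3.45–5.32) in clust1050, 3.49-fold (3.11–3.93) in SdSaS, 3.37-fold (2.80–4.09) in clust1244 and 2.70-fold (2.13–3.46) in clust1093. None of the 10 was at least 2-fold higher in stem, where 4.71% of the 85 were. By any margin 2 of the 10 were higher in stem than in large leaves, where 25.9% of the 85 were: SdPS, at 1.59-fold (1.41–1.80), and clust3938, at 1.04-fold, which was lower in stem when scaled to mitochondrial ATP synthase transcripts. SdSaS and clust1421 were both highest in the largest leaves among the leaf libraries. In stem clust1421 was 1.70-fold (1.58–1.82) lower, short of the 2-fold that SdSaS passed. Scaled to mitochondrial ATP synthase transcripts, 6 were at least 2-fold lower in stem than in large leaves, against 42.4% of the 85. The one added was clust1421, at a log2 ratio of -1.19, so this difference between the pair at 2-fold rested on the scaling.

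In roots, 6 of the 10 were at least 2-fold lower than in stem, where 63.5% of the 85 were, and 1, clust874, was at least 2-fold higher, where 10.6% of the 85 were. By any margin 2 were higher in roots, clust874 and clust1244, where 23.5% of the 85 were. Scaled to mitochondrial ATP synthase transcripts, 6 were at least 2-fold lower and 2, clust874 and clust1244, at least 2-fold higher, against 54.1% and 14.1% of the 85. The 6 were SdSaS at 45.1-fold (21.7–113), clust3938 at 15.3-fold (9.73–25.3), clust2225 at 13.0-fold (7.71–23.6), clust1421 at 11.3-fold (9.17–14.1), clust1129 at 7.16-fold (5.85–8.84) and SdPS at 5.78-fold (4.63–7.29). The root values of clust1050 and clust1093 were 2.16-fold (1.49–3.17) and 2.05-fold (1.40–3.07) below stem by RPKM, and under 2-fold once 1 RPKM was added to both sides. Below clust874 and clust1244, the other 8 were between 0.663 and 10.2 RPKM in roots, and every pair of neighbours in their order had overlapping counting intervals. Roots were thus at a median of 0.175% of the trichome level over the 10 and 0.234% over all 85, with clust874 at 5.32% (5.03–5.63) and clust603 at 2.04%.

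**Figure D4:**
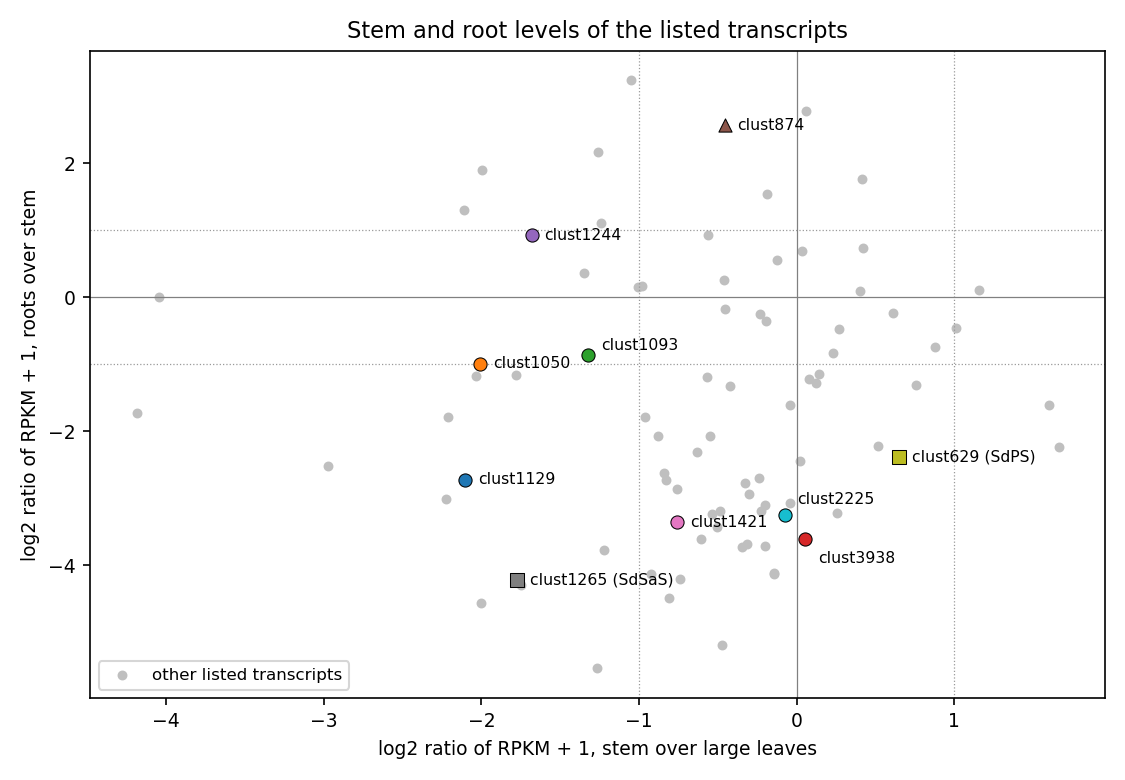
Log2 ratio of RPKM + 1 of stem over large leaves (horizontal) and of roots over stem (vertical) for the 85 listed transcripts, with 1 library per tissue. Coloured symbols are the 10 terpene synthases, by class as in the plot of levels by tissue, and dotted lines mark 2-fold. Only clust874 of the 10 lies above the upper dotted line, and clust1265 (SdSaS) lies lowest.

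The make-up of the group was alike in trichomes and small leaves and shifted in the other tissues. Sesquiterpene synthase-like transcripts took 85.2% of the summed RPKM in trichomes, 83.9% in small leaves, 84.4% in medium leaves, 81.2% in large leaves, 75.7% in stem and 32.2% in roots. The monoterpene synthases SdSaS and SdPS took 8.19%, 10.1%, 11.4%, 15.7%, 19.2% and 4.38% in the same order. The first place passed from clust1129 in trichomes and leaves to clust1421 in stem (25.3%) and to clust874 in roots.

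**Figure D5:**
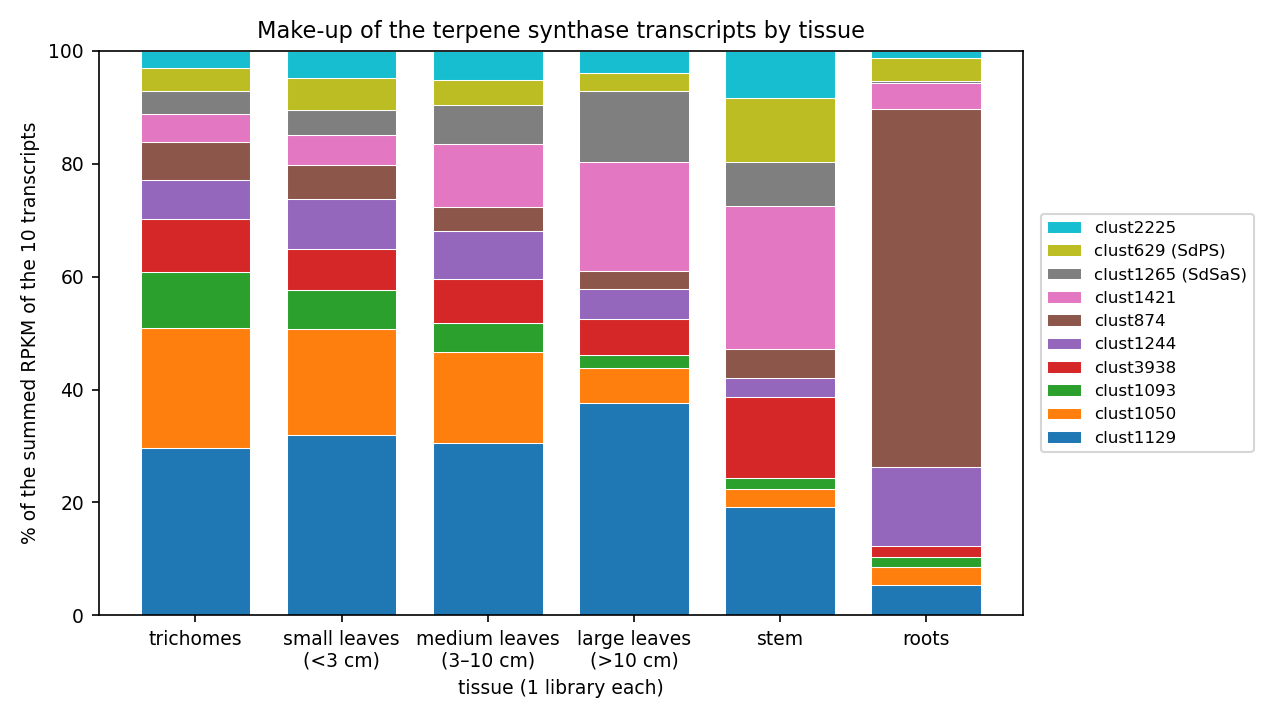
Percentage of the summed RPKM of the 10 terpene synthase transcripts held by each, in 6 tissues with 1 library each. The 2 lowest blocks, clust1129 and clust1050, hold 50.9% in trichomes and 8.51% in roots, where clust874 holds 63.4%.

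Enzymes that supply the substrates are in the same table. Of the 8 transcripts of the MEP pathway and isopentenyl diphosphate isomerase, which make the C5 units for monoterpenes and diterpenes in plastids, 7 were at least 8-fold higher in trichomes than in small leaves, against 72.9% of the 85, and their median log2 ratio was 3.22, below the 3.35 of all 85. The falling order along the leaf series was found in 2 of them, against 76.5% of the 85. In roots 5 were at least 2-fold higher than in stem, as clust874 was, against 10.6% of the 85. Both prenyltransferases, which join C5 units into the linear diphosphates, were past 8-fold, with a median log2 ratio of 4.27, and had the falling order, on the same backgrounds. The left-out clust603, clust70 and clust927 were all 3 past 8-fold and falling.

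The listed transcripts with the most similar 6-tissue profile were sought for each of the 10 among the other 84, by the root mean square difference over 6 libraries, which all pairs share. The closest match was that of clust1050 with clust5902, a partial P450 of the CYP71B9 type, at 0.086. In clust5902 the stem value rests on 16 fragments and the root value on 4. At such counts both counting error and the added 1 RPKM bear on the difference, so its smallness is uncertain. SdSaS was nearest to clust3054, a short-chain dehydrogenase (0.19), clust2225 to the methyltransferase clust2684 (0.23), clust874 to clust2833 (SdPAOMT), a methyltransferase (0.26), and clust1421 to the methyltransferase clust4440 (0.32). SdPS was nearest to clust2459 (SdPOHDH), a dehydrogenase (0.34), clust3938 to the methyltransferase clust4450 (0.34), clust1129 to clust3165, matched to menthol dehydrogenase (0.35), clust1093 to the diterpene synthase-like clust927 (0.37) and clust1244 to the aldehyde dehydrogenase clust1416 (0.53). In none of the 10 was clust603 the nearest, and its rank among the 84 was best for clust1244, at 3, and for clust874, at 6. This measure weighs all 6 libraries alike on a log2 scale. The 85 were selected by another measure, the Pearson correlation of expression levels with SdLS, so a low rank here does not conflict with that selection. The nearest transcript was in no case another of the 10. Members are only 10 of the 85 listed transcripts, so few of the 84 candidates were members. This count therefore does not show that the 10 differ from one another.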

How the data were processed

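The authors made stranded libraries, sequenced read pairs and separated them with CASAVA 1.8.1 (also in the submitters' processing notes). They mapped pairs with CLC Genomics Workbench to consensus reading frames of PacBio trichome transcripts, without regard to strand, and deposited RPKM for 85 selected transcripts. Their correlation columns were not used. Tissues came from the sample labels. RPKM were used as deposited. Ratios called by fold are of RPKM + 1 (pseudocount 1 RPKM), with 8-fold for trichomes and 2-fold elsewhere. Fragments were recovered as whole numbers from RPKM, with coding lengths that are multiples of 3 nt of at least 600 nt, the shortest that fitted being taken. All 510 of 510 values were whole within 0.001 fragments. Library totals are the smallest that fitted, or the whole multiple of them whose lengths best followed the cluster numbers, a criterion chosen after seeing the data. If true totals are multiples, the intervals are too wide. On simulated data, with lengths made to follow the cluster numbers and totals drawn near those recovered here, all totals were recovered. Built on the same criterion, the simulation cannot check that criterion or the real totals. Intervals are exact Poisson (RPKM) and Clopper-Pearson (ratios). The members, lists and named genes (all 10, clust603 and each nearest profile) were chosen with earlier results of these data known. The lists of precursor enzymes were set by hand from annotation. Alternatives were the pseudocount, a filter, another scaling, summed classes and leaving out clust1129. Tools were scipy 1.17.1, pandas 2.3.3, numpy 2.4.6 and matplotlib 3.10.9 under Python 3.11.15.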

Additional observations from a re-analysis of the deposited data

How the results depend on the processing

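No paired analysis was possible because each tissue has 1 library. The mitochondrial ATP synthase transcripts clust1041 and clust4711 are among the 85 selected and are not an independent reference. Scaling to them shifts log2 ratios of RPKM by -0.36 for trichomes over small leaves, 0.66 for large over small leaves, -0.44 for stem over large leaves and 0.36 for roots over stem. With 1 RPKM added the shift is less where levels are low, and for roots over stem it was 0.15 in clust1265 and 0.35 in clust874. With it 5 of the 10 in place of 8 were at least 2-fold lower in large leaves than in small leaves (44.7% of the 85 in place of 60%), and 2 in place of 1 were at least 2-fold higher in roots than in stem (14.1% in place of 10.6%). It left 9 at least 8-fold higher in trichomes, without clust2225 (49.4% in place of 72.9%), and 7 falling along the leaf series, without clust1129 (58.8% in place of 76.5%). In stem 6 in place of 5 were at least 2-fold lower than in large leaves, with clust1421 added (42.4% in place of 27.1%). The log2 ratio of stem over large leaves in clust3938 changed sign with this scaling, from 0.05 to -0.38. With members summed by like BLAST matches, and characterised members kept by name, 5 of 7 groups were at least 2-fold lower in large leaves than in small leaves. The 85 were not grouped in this way, and as single transcripts 60% of them were. Among the 7 members with a mean of at least 300 RPKM, 3 were at least 2-fold lower in roots than in stem, in place of 6 of 10, against 58.2% of the 67 listed transcripts that pass and 63.5% of the 85. That mean is set mostly by trichomes, and the members it drops, clust1265, clust629 and clust2225, are the lowest of the 10 there. The filter is thus no check on root and stem levels. With a pseudocount of 0.1 RPKM, 8 of the 10 were at least 2-fold lower in roots than in stem, clust1050 and clust1093 being added, against 67.1% of the 85. With 10 RPKM added, clust1093 was no longer at least 2-fold lower in stem than in large leaves, which left 4 of 5, against 23.5% of the 85. The ratio of the summed level to clust603 in trichomes, 1.51 by RPKM, was 1.06 without clust1129 and 1.22 by fragments not divided by length, and the share of mapped fragments was 3.23% without clust1129 in place of 4.84%. The fewest fragments behind a value were 3193 in trichomes and 7 in roots, so root levels are less certain than trichome levels. Least certain in roots were clust1265, clust2225 and clust3938, at 7, 15 and 20 fragments, where clust874 had 1359.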
